A study of Mus musculus with 18 samples.

Results

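A set of 10 genes of the unfolded protein response and the integrated stress response were followed here across 18 RNA-seq libraries of nuclear and total mouse RNA. They were taken by symbol: Atf6, Xbp1, Atf4, Ddit3, Trib3, Chac1, Asns, Herpud1, Sdf2l1 and Pdia4, which are 10 of the 24602 genes in the count table. All 10 passed the filter on low counts in each fit. The study compared 3 Nup93 genotypes of strain 129S1/SvlmJ mice: wild type (WT), R388W/+ (Het) and R388W/R388W (Hom), R388W being an amino acid substitution in the nuclear pore protein NUP93. Each genotype was sequenced as nuclear RNA and as total RNA, with 3 libraries in each of the 6 groups (Nuclear_WT, Nuclear_Het, Nuclear_Hom, Total_WT, Total_Het and Total_Hom). The groups received no treatment that the labels name, and the labels give neither ages nor sexes, nor whether the 3 libraries of a group come from separate animals. The p-values below therefore reflect no more than the variation among these libraries, and that variation may be technical.

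The unfolded protein response is the reaction of the endoplasmic reticulum (ER) to misfolded protein. Its sensors are the kinase PERK, the kinase and nuclease IRE1 and the membrane-bound transcription factor ATF6. IRE1 removes an intron from Xbp1 mRNA in the cytoplasm, which gives the active form of the transcription factor XBP1, and ATF6 is cut in the Golgi to release its own active part. PERK and related kinases phosphorylate the translation factor eIF2, which lowers protein synthesis in general but favours translation of Atf4 mRNA; this branch, shared with amino acid starvation, is the integrated stress response. The secretory activity of a cell type sets much of its baseline expression of these genes, and plasma cells are known for high XBP1. Gene-level counts measure neither Xbp1 splicing nor translation, cleavage of ATF6 or phosphorylation of eIF2.

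Promoter sequence is shown for 3 members that hold short motifs known from these pathways. The bases are the 250 before the start site, from RefSeq on GRCm38.p6, 5′ to 3′ on the gene's strand, and capitals mark the motif matches. The counts were made on mm9, and no count was read by coordinate. Herpud1 lies at chr8:94386179-94386428 (plus strand), Asns at chr6:7693210-7693459 (minus strand) and Chac1 at chr2:119350992-119351241 (plus strand).
Herpud1: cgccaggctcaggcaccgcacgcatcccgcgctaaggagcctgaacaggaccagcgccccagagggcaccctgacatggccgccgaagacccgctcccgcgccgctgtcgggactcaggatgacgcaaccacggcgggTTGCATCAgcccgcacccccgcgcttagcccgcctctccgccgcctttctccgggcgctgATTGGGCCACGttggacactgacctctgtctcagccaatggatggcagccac
Asns: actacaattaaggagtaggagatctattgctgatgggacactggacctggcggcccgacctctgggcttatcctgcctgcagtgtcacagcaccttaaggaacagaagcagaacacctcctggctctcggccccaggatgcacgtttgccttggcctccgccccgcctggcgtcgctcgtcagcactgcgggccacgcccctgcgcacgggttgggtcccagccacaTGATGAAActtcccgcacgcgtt
Chac1: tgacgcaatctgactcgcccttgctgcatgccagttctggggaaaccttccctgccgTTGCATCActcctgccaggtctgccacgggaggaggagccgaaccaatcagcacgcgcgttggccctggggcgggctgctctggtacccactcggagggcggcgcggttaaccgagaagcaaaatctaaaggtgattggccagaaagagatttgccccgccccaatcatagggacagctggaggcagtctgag
Of the 10 members, 9 had a promoter entry, and Atf6 had none. On both strands, 4 motifs were searched in 300 bases (250 before and 50 after the start). ERSE-II, an ER stress element made of ATTGG and CCACG with 1 base between them, matched in Herpud1 from -52 to -42 and in 0.0365% of 32851 promoters. The C/EBP-ATF element (TGATGNAA), the type of site bound by ATF4 with C/EBP partners, matched in Herpud1 from -112 to -105, in Chac1 from -193 to -186 and in Asns from -23 to -16. It also matched in Trib3 from 15 to 22 after the start, and in 3.97% of all promoters. ERSE (CCAAT and CCACG with 9 bases between them, in 0.119% of promoters) and the UPRE core (TGACGTGG, in 0.676%) matched in 0 members as spelled here. In Herpud1, the only member with matches to more than 1 motif, the matches shared no base. These matches describe letters in a window and not binding.

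Facts of the series bear on every comparison. Depth was 17405493 to 23462056 counts per library, after subtraction of the 9 nuclear columns, summed per gene, from Total_WT replicate 1. Total_Hom replicate 2 stood apart from its group, with 7.12% of its counts on the ribosomal transcript Rn45s against 0.11% to 1.02% in the other libraries. The targeted gene, Nup93, was present in all 6 groups, at 15.9 ± 0.864 CPM (read counts scaled to a common library size) in Nuclear_WT (SD, n = 3) up to 22.5 ± 0.873 in Nuclear_Het, which does not check a point substitution. The X-inactivation transcript Xist averaged 345 to 515 CPM in Nuclear_Het, Nuclear_Hom and Total_WT and 0.540 to 1.25 CPM in the other 3 groups, where Y-linked genes were high instead. Comparisons with WT, and of nuclear with total RNA in 1 genotype, therefore also compare Xist-high with Xist-low libraries, and the 2 cannot be told apart. Hom against Het has the same Xist status within each fraction and is given first. The interaction, which sets the Hom against Het difference in nuclear RNA against that in total RNA, compares an Xist-high pair with an Xist-low pair, so there too fraction and Xist status cannot be told apart. The design text speaks of isolated podocytes, the filtering cells of the glomerulus, whereas the tissue label says only mouse tissue. The 14 podocyte markers summed to 831 to 1480 CPM per group, with 0 of them at 0, and the 15 proximal tubule markers to 18474 to 51378 CPM. In bulk RNA, fewer cells of a type and less RNA per cell cannot be told apart.

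Levels below are CPM scaled by trimmed mean of M values (TMM). Per kilobase of the deposited gene length, mean levels over the 18 libraries ran from 125 CPM per kb for Herpud1, through 69.8 for Xbp1, 56.2 for Atf4 and 53.6 for Pdia4, to 0.869 for Chac1 and 0.676 for Trib3. The most variable members were Trib3 and Chac1, at 10 to 52 and 10 to 44 counts per library, and Herpud1. Their group means spanned 1.47, 1.41 and 1.40 on the log2 scale, in that order. Atf6 varied least, with a span of 0.22. The plot of CPM by library shows that the members did not share 1 order of groups.

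**Figure D1:**
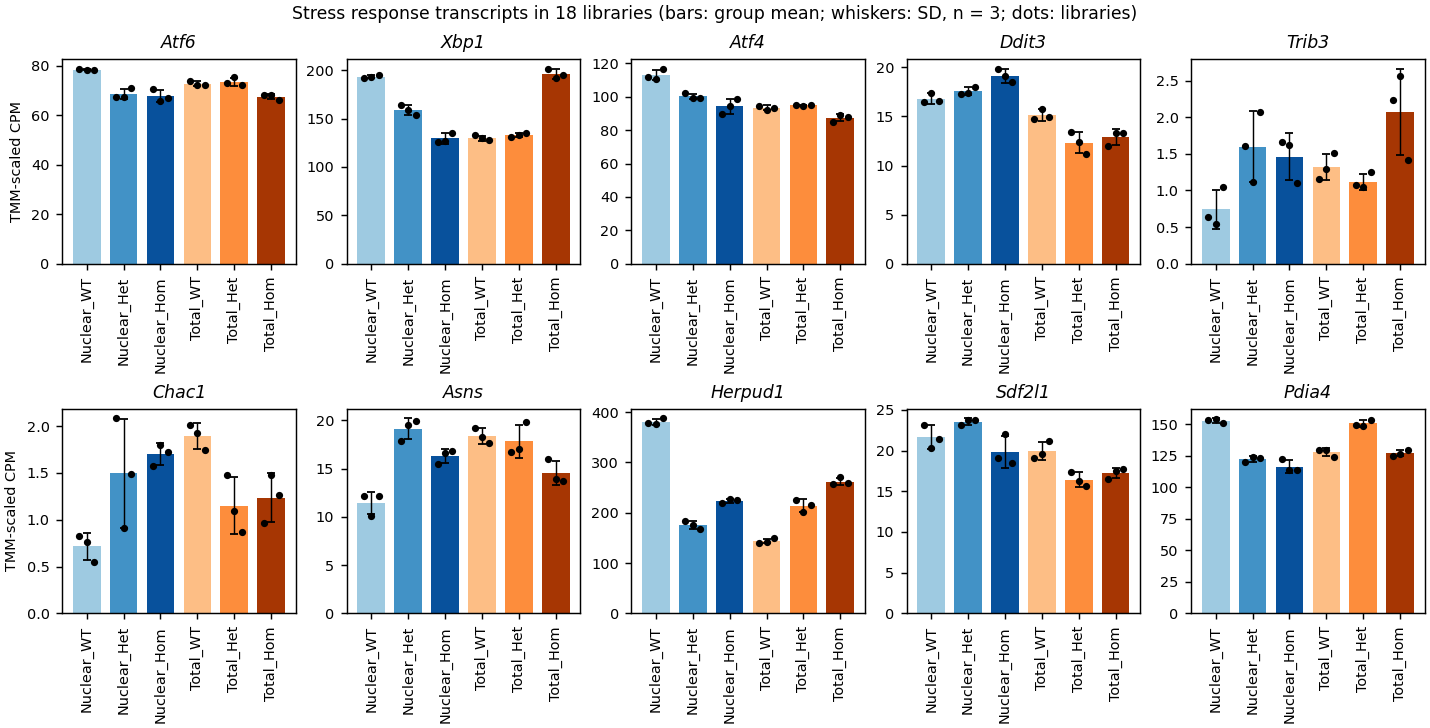
TMM-scaled CPM of the 10 members (vertical axis, from 0, with its own scale for each gene) in the 6 groups; bars are group means, whiskers SD (n = 3) and dots the libraries. Herpud1 peaks in Nuclear_WT at 381 CPM, Xbp1 in Total_Hom at 196 CPM, and Atf6 stays between 65.7 and 78.7 CPM in every library.

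Hom against Het asked how the members differ between 2 and 1 mutant alleles. In nuclear RNA, 1 member was higher in Hom (Herpud1) and 5 were lower (Xbp1, Sdf2l1, Asns, Atf4 and Pdia4), by edgeR's quasi-likelihood test with Benjamini-Hochberg adjusted p under 0.05 over all genes. That is 6 of 10 members, against 43.2% of all 15112 genes tested (21.4% higher, 21.8% lower). With DESeq2 the nuclear count was 4, without Atf4 and Pdia4, and fewer of all genes were called too. Leaving out 1 library gave nuclear counts of 5 to 6. Whether the nuclear share of members exceeds the background was not tested. In total RNA, 3 were higher (Xbp1, Trib3 and Herpud1) and 4 lower (Pdia4, Asns, Atf6 and Atf4). These 7 of 10 stand beside 67.0% of 15051 genes (32.9% higher, 34.1% lower), so the share of members called in total RNA is near the background. The median log2 difference of the members was -0.09 in nuclear and 0.07 in total RNA, with medians of all genes of 0.00 and 0.01. Scaling by library totals alone moved the median of all genes by -0.05 in nuclear and 0.15 in total RNA. With that scaling, 33.5% of nuclear calls were higher in place of 49.6%, and 68.4% of total calls in place of 49.1%.

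**Figure D2:**
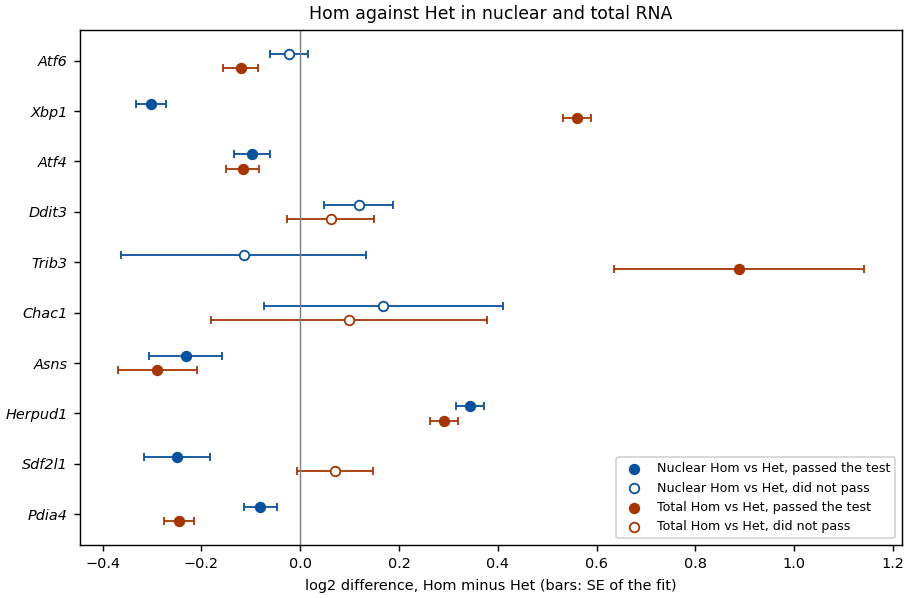
The log2 difference, Hom minus Het (horizontal axis), for each member in nuclear RNA (blue) and total RNA (brown); bars are SE from the edgeR fits, filled points passed the test and open points did not. Xbp1 lies on opposite sides of 0 in the 2 fractions (-0.30 and 0.56), while Herpud1 lies above 0 in both (0.34 and 0.29).

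Among the transcription factors, Xbp1 differed most between the fractions. Its nuclear level in Het was 164, 159 and 153 CPM, and in Hom 126, 127 and 135 CPM. In total RNA, Het had 131, 134 and 135 CPM and Hom 201, 192 and 195 CPM. Neither pair of groups overlapped: Hom was the lower in nuclear and the higher in total RNA. The log2 difference was -0.30 ± 0.03 (SE, edgeR adjusted p = 4.12e-14) in nuclear RNA and 0.56 ± 0.03 (edgeR adjusted p = 2.07e-40) in total RNA. The difference between them, tested as an interaction, was -0.86 ± 0.04 (edgeR adjusted p = 1.36e-41), and this call changed under none of the alternative settings run. Over the 6 groups, Nuclear_Hom, Total_WT and Total_Het formed the low end (129, 130 and 133 CPM), with overlapping libraries. Nuclear_Het stood between, and Nuclear_WT and Total_Hom formed the high end (193 and 196 CPM), again overlapping.

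Plasma cell markers also moved between these groups. The summed level of 7 such genes was 492 ± 5.51 CPM in Nuclear_Het and 69.3 ± 0.612 in Nuclear_Hom (SD, n = 3), and 5 of 6 tested were lower in Hom. In total RNA the sum was 850 ± 5.44 in Het and 725 ± 3.10 in Hom, with 3 of 7 lower and 1 higher, which is the opposite direction to Xbp1. Jchain, the joining chain of secreted antibodies, accounted for most of the Nuclear_Het sum, at 382 CPM in Nuclear_Het and 20.5 in Nuclear_Hom. Macrophage and T cell markers summed to 625 ± 19.2 CPM in Nuclear_Het and 241 ± 5.25 in Nuclear_Hom. Markers of some other cell types were higher in Total_Hom, as Xbp1 was. Collecting duct genes had 9 of 10 higher and 0 lower (summed level 2051 ± 52.2 CPM against 1098 ± 23.2 in Total_Het). Podocyte genes had 12 of 14 higher and endothelial genes 9 of 10, with 0 lower in either list. Others were mostly lower: 12 of 15 proximal tubule genes (3 higher) and 6 of 9 of the thick ascending limb and distal tubule (3 higher). Nuclear Xbp1 was lower in Hom instead. There, 4 collecting duct genes were lower and 3 higher, 9 podocyte genes lower and 2 higher, and 1 endothelial gene lower and 5 higher. All 15 proximal tubule genes were higher in nuclear RNA, as were 6 of 9 of the thick ascending limb and distal tubule, with 0 lower in either list. Mesangial and stromal genes had 5 of 9 lower and 1 higher in nuclear RNA, and 3 lower and 4 higher in total RNA. Of all genes, 43.2% were called in nuclear and 67.0% in total RNA. The part of any of these cells in the Xbp1 differences was not tested.

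Atf4, which encodes the main transcription factor of the integrated stress response, was slightly lower in Hom in both fractions. Nuclear levels were 102, 99.5 and 99.1 CPM in Het and 89.9, 94.2 and 98.4 CPM in Hom, and total levels 94.9, 94.5 and 95.2 CPM in Het and 85.1, 89.3 and 87.8 CPM in Hom. The groups did not overlap in either fraction, although the highest Nuclear_Hom library came within 1 CPM of the lowest Nuclear_Het library. The nuclear difference was -0.10 ± 0.04 (edgeR adjusted p = 0.0247), and it was not called with DESeq2 or without replicate 1 of either group. The total difference was -0.12 ± 0.03 (edgeR adjusted p = 0.00122), and it turned to 0.04 with library totals alone. ATF4 is regulated largely through translation, which counts do not record.

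Atf6 encodes the membrane-bound sensor and transcription factor. Its nuclear libraries overlapped, at 67.3 to 71.1 CPM in Het and 65.7 to 70.6 in Hom (difference -0.02 ± 0.04, edgeR adjusted p = 0.667). In total RNA it was lower in Hom, at 66.2 to 68.2 CPM against 72.3 to 75.3 CPM in Het. That difference of -0.12 ± 0.04 (edgeR adjusted p = 0.00187) turned to 0.03 with library totals alone. The interaction did not pass the test (0.10 ± 0.05, edgeR adjusted p = 0.0806).

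Of the effectors downstream of ATF4, Asns, which encodes asparagine synthetase, was lower in Hom in both fractions. Its nuclear levels were 17.9, 19.6 and 19.9 CPM in Het and 15.5, 16.7 and 16.8 CPM in Hom. In total RNA they were 16.7, 16.99 and 19.8 CPM in Het and 16.0, 13.9 and 13.8 CPM in Hom. The groups did not overlap in either fraction. The differences were -0.23 ± 0.07 in nuclear (edgeR adjusted p = 0.00671) and -0.29 ± 0.08 in total RNA (edgeR adjusted p = 0.000831). The total value was -0.14 and not called with library totals alone.

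Trib3 encodes a pseudokinase induced by ATF4 and CHOP that restrains their activity. It was detected at few counts, with 1.61, 1.11 and 2.08 CPM in Nuclear_Het and 1.67, 1.62 and 1.099 in Nuclear_Hom. In total RNA, Het had 1.08, 1.04 and 1.25 CPM and Hom 2.23, 2.56 and 1.42 CPM. The nuclear groups overlapped, and in total RNA every Hom library was above every Het library. The nuclear difference was -0.11 ± 0.25 (edgeR adjusted p = 0.745) and the total difference 0.89 ± 0.25 (edgeR adjusted p = 0.00122). The interaction of -0.998 ± 0.360 (edgeR adjusted p = 0.0112) was -0.78 to -0.82 and not called without Nuclear_Het replicate 3 or without Total_Hom replicate 2, the library with high Rn45s.

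Neither of the other effectors passed the test between Hom and Het. Ddit3, which encodes the pro-apoptotic factor CHOP, was at 17.3 to 18.05 CPM in Nuclear_Het and 18.5 to 19.8 in Nuclear_Hom. Its differences were 0.12 ± 0.07 in nuclear (edgeR adjusted p = 0.169) and 0.06 ± 0.09 in total RNA (edgeR adjusted p = 0.548). The total value was 0.21 and called with library totals alone. Ddit3 shares up to 68 exon bases with Mars on the opposite strand (GENCODE annotation of GRCm38). As the strand setting of the counting is not given in the sources used here, its counts are uncertain. Chac1, which encodes a glutathione-degrading enzyme induced by ATF4, had libraries from 0.910 to 2.08 CPM in Nuclear_Het and 1.57 to 1.80 in Nuclear_Hom. Its differences were 0.17 ± 0.24 in nuclear (edgeR adjusted p = 0.612) and 0.10 ± 0.28 in total RNA (edgeR adjusted p = 0.770), each smaller than its SE. At the low counts of this gene, a small change could go undetected.

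Among the members that act at the ER itself, Herpud1 was higher in Hom in both fractions. Its product is an ER membrane protein of the machinery that exports misfolded proteins for degradation. Nuclear levels were 184, 175 and 169 CPM in Het and 220, 227 and 225 CPM in Hom. Total levels were 226, 202 and 216 CPM in Het and 257, 270 and 260 CPM in Hom. Every Hom library was above every Het library of its fraction. The differences were 0.34 ± 0.03 in nuclear (edgeR adjusted p = 4.45e-19) and 0.29 ± 0.03 in total RNA (edgeR adjusted p = 4.37e-16). With the deposited column of Total_WT replicate 1 in the fit, the total value was 0.30 and not called (edgeR adjusted p = 0.263). The interaction between fraction and genotype did not pass the test (0.06 ± 0.04, edgeR adjusted p = 0.211), but it was called without Total_Het replicate 2 (0.09), and it turned to -0.15 and was called with library totals alone.

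Proximal tubule markers went in the direction of Herpud1 in nuclear RNA and in the opposite direction in total RNA. In nuclear RNA all 15 were higher in Hom, with a summed level of 24446 ± 53.2 CPM against 18474 ± 185 in Het. In total RNA 12 of 15 were lower in Hom and 3 higher, with 19075 ± 173 CPM against 51378 ± 479 in Het, while Herpud1 was higher. Of all genes, 21.4% were higher in Hom in nuclear RNA and 34.1% lower in total RNA. The part of tubule cells in the Herpud1 differences was not tested.

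Pdia4 encodes a protein disulfide isomerase of the ER. Its total levels were 150, 149 and 154 CPM in Het and 125, 126 and 130 CPM in Hom, without overlap. That difference was -0.25 ± 0.03 (edgeR adjusted p = 6.11e-13), and it was -0.09 and not called with library totals alone. In nuclear RNA the levels were 120, 124 and 123 CPM in Het and 122, 114 and 113 CPM in Hom, so the groups overlapped. The nuclear difference of -0.08 ± 0.03 (edgeR adjusted p = 0.0406) was not called in 7 of 18 alternative settings, DESeq2 among them. The interaction was 0.17 ± 0.04 (edgeR adjusted p = 0.000500) and turned to -0.04 with library totals alone.

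Sdf2l1 encodes an ER-resident partner of the chaperone BiP. In nuclear RNA it was at 23.1, 23.8 and 23.8 CPM in Het and 19.1, 22.0 and 18.4 CPM in Hom, without overlap, a difference of -0.25 ± 0.07 (edgeR adjusted p = 0.00134). In total RNA the groups overlapped, at 15.6 to 17.4 CPM in Het and 16.5 to 17.8 CPM in Hom (0.07 ± 0.08, edgeR adjusted p = 0.433), with a value of 0.22 that was called with library totals alone. The interaction was -0.31 ± 0.10 (edgeR adjusted p = 0.00435) and was called in every alternative setting run. In all, 4 of 10 members had an interaction past the threshold (Trib3, Xbp1 and Sdf2l1 with a lower nuclear-to-total ratio in Hom than in Het, and Pdia4 with a higher one), against 63.6% of 15410 genes (31.7% higher, 31.9% lower). The nuclear pair of groups is Xist-high and the total pair Xist-low. With library totals alone, 29.1% of the interaction calls among all genes were higher in place of 49.8%, and the median of all genes moved by -0.21.

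The members sit within larger pathways, and 6 lists of 124 gene entries, none of them members, were counted in the same fits. Among stress sensors and regulators of the eIF2 cycle, 7 of 18 were higher and 1 lower in Hom in nuclear RNA, and 2 were higher and 9 lower in total RNA. The shares called were 44.4% and 61.1%, beside 43.2% and 67.0% of all genes, so they are near or below the background. With library totals alone the counts were 3 higher and 5 lower in nuclear RNA and 4 and 8 in total RNA. The nuclear count of lower genes was 2 without Nuclear_Hom replicate 3 and with a filter at a mean of 5 CPM, and the total count of higher genes was 1 with DESeq2 and without Total_Het replicate 1 or Total_Hom replicate 1. Ppp1r15a (GADD34), the stress-induced subunit of the eIF2 phosphatase, was higher in Hom in both fractions, by 0.36 ± 0.07 in nuclear (edgeR adjusted p = 3.81e-06) and 0.50 ± 0.07 in total RNA (edgeR adjusted p = 4.25e-10). Eif2ak3, which encodes PERK, was at 56.1 ± 1.21 CPM in Nuclear_Hom and 49.8 ± 1.26 in Nuclear_Het, a difference of 0.17 that passed the test (edgeR adjusted p = 0.000779). In total RNA its difference was 0.04 (edgeR adjusted p = 0.370). Eif2ak2, which encodes a related kinase, differed by -0.28 in nuclear and -0.22 in total RNA, both called. Dnajc3, Ppp1r15b and Eif2ak1 differed in total RNA by -0.33, -0.34 and -0.27, all called. In nuclear RNA they differed by 0.12, 0.02 and 0.10, with Ppp1r15b not called. Eif2s1, the phosphorylated subunit of eIF2, differed in Hom in total RNA by -0.38 (edgeR adjusted p = 1.14e-13) and differed by -0.09 in nuclear RNA (edgeR adjusted p = 0.0993).

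Other targets of ATF4 and CHOP divided between rises and falls. In nuclear RNA 7 of 27 were higher and 15 lower in Hom (median -0.20), and in total RNA 13 were higher and 5 lower (median 0.28). The shares called were 81.5% and 66.7%, beside 43.2% and 67.0% of all genes, so the total share is near the background. With library totals alone 2 were lower in total RNA. Ddit4 (REDD1), an inhibitor of mTORC1, was at 32.8 ± 1.97 CPM in Nuclear_Hom against 47.8 ± 2.12 in Nuclear_Het, and at 97.1 ± 1.89 in Total_Hom against 29.7 ± 0.869 in Total_Het. Its differences were -0.55 (edgeR adjusted p = 1.53e-16) and 1.71 (edgeR adjusted p = 1.23e-73). Nupr1, a stress-induced chromatin regulator, and Stc2, a secreted glycoprotein, also fell in nuclear and rose in total RNA. The values were -0.30 and 0.74 for Nupr1 and -1.02 and 0.80 for Stc2. Shmt2 (mitochondrial serine hydroxymethyltransferase) and Cth (cystathionine gamma-lyase) went the other way, at 0.56 and -1.10 for Shmt2 and 0.49 and -0.27 for Cth. Gpt2, a mitochondrial alanine aminotransferase, rose in both, by 0.30 and 0.78. Of the immediate early genes, which respond within minutes to stimulation or tissue handling, 1 of 17 was higher and 10 lower in Hom in nuclear RNA, and 13 of 16 were higher and 0 lower in total RNA. Their part in the target gene pattern was not tested.

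Aminoacyl-tRNA synthetases, which include ATF4 targets, were lower in Hom for 5 of 12 genes in nuclear RNA (0 higher) and for 8 of 12 in total RNA (2 higher). The shares called were 41.7% and 83.3%, beside 43.2% and 67.0% of all genes, so the nuclear share is near the background. The counts depended on the scaling: with library totals alone 10 were lower in nuclear RNA, and 3 were lower and 4 higher in total RNA. The nuclear count was 3 with DESeq2, without Nuclear_Het replicate 1 and without Nuclear_Hom replicate 2. Eprs was at 154 ± 2.59 CPM in Nuclear_Hom against 166 ± 2.73 in Nuclear_Het, and at 153 ± 1.01 in Total_Hom against 229 ± 3.72 in Total_Het. Aars differed by -0.11 in nuclear and -0.43 in total RNA, both called. Wars was lower in nuclear RNA (-0.15) and higher in total RNA (0.18).

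ER chaperones and folding enzymes other than Pdia4 and Sdf2l1 were mixed in nuclear RNA, with 9 of 23 higher and 7 lower in Hom (median 0.01). In total RNA 3 were higher and 15 lower (median -0.25), which became 7 higher and 10 lower with library totals alone. The shares called were 69.6% in nuclear and 78.3% in total RNA, beside 43.2% and 67.0% of all genes. The nuclear count of lower genes was 4 with DESeq2, without Nuclear_Het replicate 3 and without Nuclear_Hom replicate 3. The total count of higher genes was 1 with DESeq2, without Total_Het replicate 1 and without Total_Hom replicate 2, and 0 with the deposited column of Total_WT replicate 1. Calr, a lectin chaperone, was at 613 ± 9.52 CPM in Total_Hom against 1007 ± 6.40 in Total_Het (-0.72, edgeR adjusted p = 9.44e-78). Pdia3 and Pdia6, both disulfide isomerases, differed by -0.67 and -0.66 in total RNA and by 0.13 and 0.18 in nuclear RNA, all called. Hsp90b1 (GRP94) differed by -0.42 in total RNA (called) and by -0.01 in nuclear RNA (edgeR adjusted p = 0.741). Hspa5, which encodes BiP, was at 443 ± 8.43 CPM in Nuclear_Hom and 451 ± 11.8 in Nuclear_Het, with overlapping libraries. In total RNA it was at 411 ± 1.75 CPM in Hom and 463 ± 9.99 in Het, without overlap. P4hb and Fkbp2 also rose in nuclear RNA (0.22 and 0.28) and fell in total RNA (-0.19 and -0.33). Cytosolic heat shock genes had 8 of 13 lower and 4 higher in total RNA, and 2 lower and 5 higher in nuclear RNA. The proximal tubule markers given beside Herpud1 moved the same way as Calr, Pdia3, Pdia6, P4hb and Fkbp2: 15 of 15 were higher in Hom in nuclear RNA, and 12 of 15 were lower in total RNA. The 7 chaperone list genes lower in nuclear RNA went the other way there. Txndc5 was among these 7 (-0.17, called), and differed by 0.03 in total RNA (edgeR adjusted p = 0.364). The part of tubule cells in the chaperone differences was not tested.

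Herpud1 acts in ER-associated degradation, a list of 20 genes. In nuclear RNA 1 was higher and 8 lower in Hom (45% called), and in total RNA 1 was higher and 13 lower (70% called), shares close to those of all genes (43.2% and 67.0%). With library totals alone 6 were higher and 8 lower in total RNA, and with DESeq2 5 were lower in nuclear RNA. Herpud1 was higher in both fractions. Vcp, the ATPase that extracts substrates from the membrane, differed by -0.66 in total RNA (called) and by 0.03 in nuclear RNA (edgeR adjusted p = 0.435). Sel1l, the adaptor of the ubiquitin ligase HRD1, fell by 0.16 in nuclear and by 0.39 in total RNA. Edem1 fell by 0.19 and by 0.64. Derl3, which plasma cells express strongly, was at 1.31 ± 0.375 CPM in Nuclear_Hom against 3.72 ± 0.348 in Nuclear_Het (-1.53, edgeR adjusted p = 6.08e-10), the 2 groups in which the plasma cell sum was 69.3 and 492 CPM. The part of plasma cells in the Derl3 difference was not tested. In translocation and COPII export, 1 of 23 was higher and 4 lower in nuclear RNA, and 7 were higher and 11 lower in total RNA (21.7% and 78.3% called); with library totals alone 10 were lower in nuclear RNA, and 11 were higher and 3 lower in total RNA. Sec62, of the translocation channel, rose by 0.14 and 0.15, and Ssr4, of the translocon-associated complex, fell by 0.15 in nuclear and rose by 0.24 in total RNA.

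**Figure D3:**
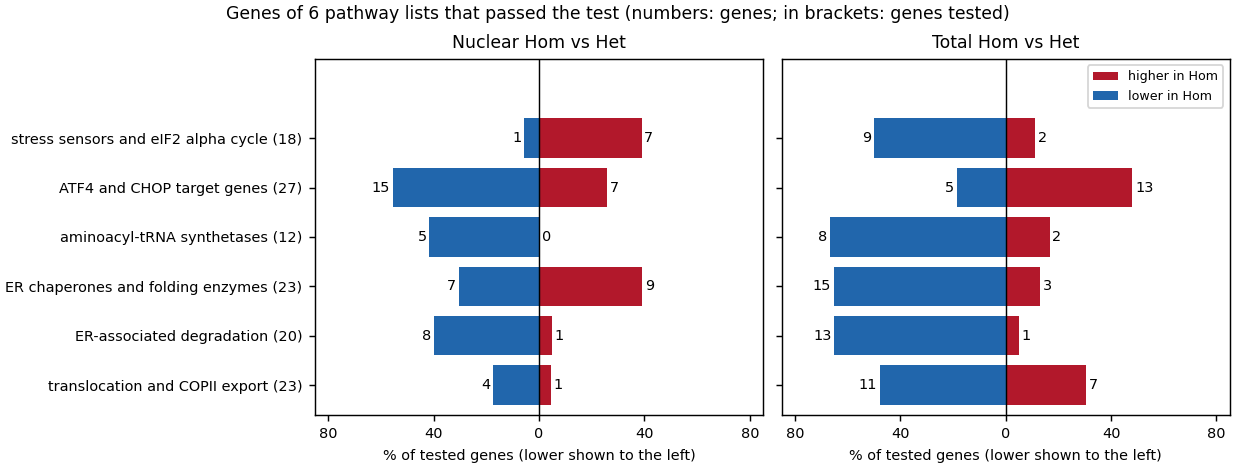
Share of tested genes of each pathway list that passed the edgeR test in Hom against Het, in nuclear RNA (left panel) and total RNA (right panel); red bars to the right are higher in Hom, blue bars to the left lower, numbers are genes and brackets give genes tested. ER chaperones have 9 higher and 7 lower in nuclear RNA and 3 higher and 15 lower in total RNA (7 and 10 with library totals alone).

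Each comparison with WT is also one of Xist status. In nuclear RNA, Hom had 4 members higher and 5 lower than WT (9 of 10, against 54.3% of genes, 26.5% higher and 27.8% lower). Het had 3 higher and 5 lower (8 of 10, against 64.6%, 32.8% and 31.7%). The 2 comparisons share the WT libraries. Herpud1 was at 378, 377 and 388 CPM in Nuclear_WT, far above both mutant groups, with differences of -0.76 ± 0.03 for Hom (edgeR adjusted p = 9.22e-43) and -1.10 ± 0.03 for Het (edgeR adjusted p = 7.44e-55). Xbp1 was at 192, 193 and 196 CPM in Nuclear_WT and differed by -0.57 and -0.27, and Pdia4 was at 154, 154 and 151 CPM and differed by -0.39 and -0.31. The Het value of Xbp1 was -0.09, still called, with library totals alone. Herpud1, Xbp1 and Pdia4 were highest of the nuclear groups in WT, without overlap. Sdf2l1 was called in neither comparison (-0.12 for Hom and 0.13 for Het), and its highest mean was in Nuclear_Het. The proximal tubule sum was also highest in Nuclear_WT, at 42840 CPM against 24446 in Nuclear_Hom and 18474 in Nuclear_Het, with 10 of 15 markers lower and 3 higher in Hom and 13 lower and 1 higher in Het. Cytosolic heat shock genes had 12 of 13 lower and 0 higher in each mutant. The part of either list in these differences was not tested.

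Of the ATF4 effectors, Asns, Trib3 and Chac1 were lowest in Nuclear_WT instead. Asns was at 12.1, 10.1 and 12.1 CPM there, below every mutant nuclear library, with differences of 0.51 ± 0.08 for Hom (edgeR adjusted p = 6.16e-08) and 0.75 ± 0.08 for Het (edgeR adjusted p = 6.10e-14). Trib3 was at 0.642, 0.546 and 1.05 CPM and Chac1 at 0.826, 0.765 and 0.551 CPM in Nuclear_WT. The differences were 0.999 ± 0.294 and 1.11 ± 0.29 for Trib3 and 1.24 ± 0.29 and 1.07 ± 0.30 for Chac1, all called, in Hom and Het in that order. Without Nuclear_Het replicate 1 the Het value of Chac1 was 0.74 and not called. Atf4 itself was higher in Nuclear_WT, at 112, 111 and 117 CPM (-0.26 for Hom and -0.16 for Het, both called), and the Het value turned to 0.02 with library totals alone. Atf6 differed by -0.20 and -0.18, both called, and by -0.08 and -0.004 with library totals alone, neither called. Ddit3 was called in Hom against WT (0.20, edgeR adjusted p = 0.0140), though not with DESeq2 nor without replicate 1 of either group. In Het its libraries overlapped those of WT (0.08, edgeR adjusted p = 0.344). The list of other ATF4 and CHOP targets had 10 of 27 higher and 5 lower in Hom, and 17 higher and 4 lower in Het. The shares called were 55.6% and 77.8%, against 54.3% and 64.6% of all genes. The summed level of that list was yet highest in Nuclear_WT, at 1583 CPM against 1527 in Nuclear_Hom and 1447 in Nuclear_Het. Among all nuclear calls, the share higher rose from 48.8% to 73.9% for Hom and from 50.9% to 75.9% for Het with library totals alone, which moved the median of all genes by 0.12 and 0.18.

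In total RNA, Hom had 3 members higher and 6 lower than WT (9 of 10, against 61.6% of genes, 30.6% higher and 31.0% lower). Without Total_Hom replicate 1 this count was 4, and with the deposited column of Total_WT replicate 1 it was 5. Het had 2 higher and 3 lower (5 of 10, against 61.1%, 30.9% and 30.3%); the count was 8 with library totals alone and 3 with the deposited column. With library totals alone, 24.5% of the Het calls were higher in place of 50.5%, and the median of all genes moved by -0.18. Herpud1 was at 141, 142 and 149 CPM in Total_WT, here below both mutant groups. It differed by 0.86 ± 0.03 for Hom (edgeR adjusted p = 4.58e-46) and 0.57 ± 0.03 for Het (edgeR adjusted p = 1.12e-32), values that were 0.55 and 0.25, neither called, with the deposited column. Xbp1 was at 133, 130 and 128 CPM in Total_WT; Hom was higher by 0.59 ± 0.03 (edgeR adjusted p = 3.16e-43), and Het overlapped WT (0.03, edgeR adjusted p = 0.318). Pdia4 was at 130, 129 and 124 CPM, with Het higher by 0.24 (edgeR adjusted p = 2.63e-12) and Hom overlapping (-0.01, edgeR adjusted p = 0.848). Asns, at 19.2, 18.2 and 17.7 CPM in Total_WT, differed in Hom by -0.33 ± 0.08 (edgeR adjusted p = 8.30e-05), a value of -0.23 and not called with the deposited column. Chac1 was highest in Total_WT (2.01, 1.92 and 1.75 CPM). It was called lower in both mutants (-0.61 for Hom and -0.71 for Het), but with the deposited column in neither. In Hom the call was also lost with DESeq2 and without Total_WT replicate 1, Total_WT replicate 2 or Total_Hom replicate 1, and in Het without Total_Het replicate 3. Of the smaller calls in Hom, Atf4 (-0.10), Ddit3 (-0.23) and Sdf2l1 (-0.21) were not called without Total_Hom replicate 1, and Atf6 (-0.10) not without Total_Hom replicate 3. Ddit3 was also lost without Total_WT replicate 2 and Sdf2l1 without Total_WT replicate 3. Trib3 (0.65, edgeR adjusted p = 0.0126) had overlapping groups and was not called with DESeq2 or without Total_WT replicate 1, Total_Hom replicate 1 or Total_Hom replicate 2. In Het, Ddit3 (-0.29) and Sdf2l1 (-0.28) were called lower than WT, without overlap.

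The nuclear and total libraries of 1 genotype were compared last. In WT 5 members were higher in nuclear RNA and 3 lower (8 of 10, against 61.7% of genes, 30.9% higher and 30.8% lower). In Het 4 were higher and 3 lower (7 of 10, against 63.6%, 33.4% and 30.2%), and in Hom 3 and 3 (6 of 10, against 60.3%, 30.5% and 29.8%). With library totals alone the share of calls higher in nuclear RNA was 25.4% in place of 50.1% in WT and 77.3% in place of 52.5% in Het, with median shifts of -0.16 and 0.20. Herpud1 was higher in nuclear RNA in WT (1.39 ± 0.03, edgeR adjusted p = 1.52e-65) and lower in Het (-0.28 ± 0.03, edgeR adjusted p = 5.55e-15) and Hom (-0.23 ± 0.03, edgeR adjusted p = 3.04e-11). With the deposited column of Total_WT replicate 1 neither of the latter was called, and with library totals alone the Het value was -0.08. Xbp1 was higher in nuclear RNA in WT (0.57) and Het (0.26) and lower in Hom (-0.60), all called. Asns and Chac1 were lower in nuclear RNA in WT (-0.69 and -1.39, called) and did not pass the test in Het or Hom. Ddit3 was higher in nuclear RNA in Het (0.51) and Hom (0.57), both called, and differed by 0.14 in WT (edgeR adjusted p = 0.103). Since the fractions of a genotype also differ in Xist status, these values cannot be read as fractions of 1 pool of RNA.

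**Figure D4:**
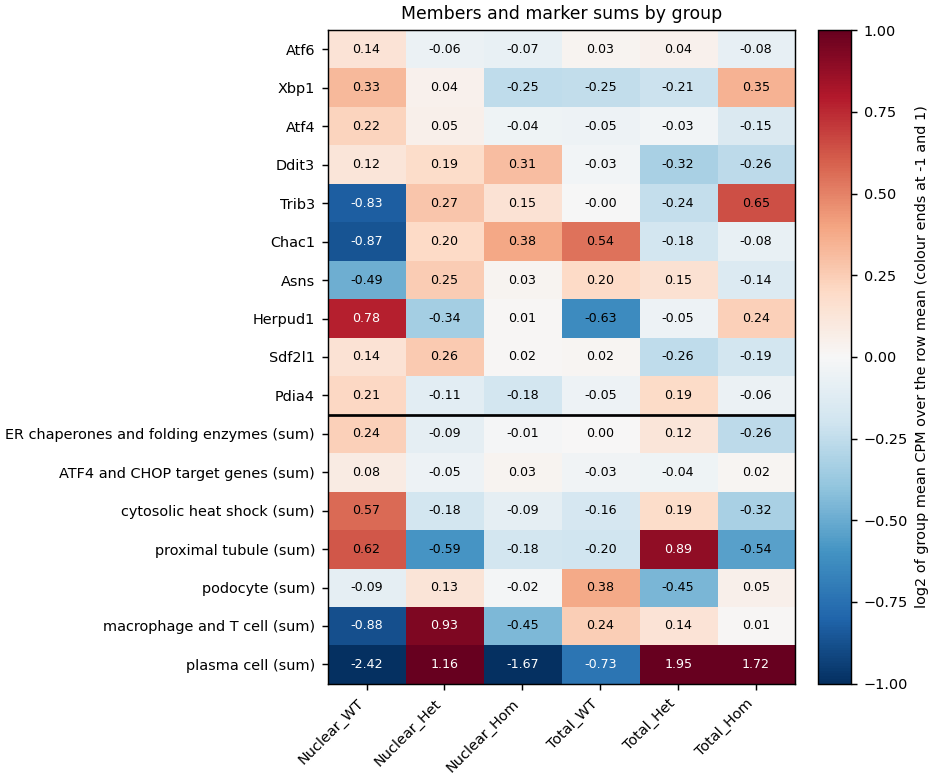
Group means of the 10 members (above the line) and summed levels of gene lists (below it), each as the log2 of the group mean CPM over the row's geometric mean over 6 groups; red is above and blue below that mean, and colour ends at -1 and 1. Herpud1 goes from 0.78 in Nuclear_WT to -0.63 in Total_WT, and the plasma cell sum from -2.42 in Nuclear_WT to 1.95 in Total_Het.

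Likeness of pattern was measured as the root mean square difference of centred log2(CPM + 0.5) over the 18 libraries, and is a description. The closest pair of members was Atf4 and Atf6 (0.09), 2 genes that vary little. For the 3 most variable members, 11188 genes averaging 5 CPM or more were compared. The nearest to Herpud1 were Slc38a3, a glutamine transporter (0.14), Ppara, the nuclear receptor of fatty acid oxidation (0.15), and Uroc1, a histidine-degrading enzyme (0.16). Slc38a3 averaged 137, 65.8 and 96.3 CPM in Nuclear_WT, Nuclear_Het and Nuclear_Hom and 60.3, 78.7 and 87.9 CPM in the total groups, the order of groups seen for Herpud1 within each fraction. The nearest to Trib3 were Tpcn2 (0.20), Rpl39 (0.21) and Cdkn1a (0.22), and to Chac1 they were Arfgef3 (0.20), Slc5a9 (0.21) and Des (0.21). At the low counts of Trib3 and Chac1, counting error forms part of these distances. The 0.5 CPM added before the log also narrows the spread of Trib3 and Chac1 more than that of genes averaging 5 CPM or more.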

How the data were processed

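Nuclear and total RNA were extracted with TRIzol and sequenced from KAPA Stranded mRNA-Seq libraries, per the labels' protocols. Build mm9 and the tools STAR 2.5.2b, CASAVA, featureCounts and DESeq2 are listed, with neither roles nor settings, per the submitters' processing notes; the annotation and strand setting are not given in the sources used here. The authors deposited raw counts per gene symbol for 18 libraries, with a gene length used here only for CPM per kb. From each gene's value in the column of Total_WT replicate 1 (200140709 counts), the sum of the 9 nuclear columns (181106189) was subtracted; 0 genes fell below it, and 19034520 counts remained. The need for this subtraction was seen in the data.

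Counts were fitted with edgeR 4.0.16 under R 4.3.3 (TMM factors, filterByExpr, robust glmQLFit and glmQLFTest), 9 libraries per fraction for genotype and all 18 for fraction and interaction tests. Calls are Benjamini-Hochberg adjusted p under 0.05 over all genes tested, and errors of log2 values are SE. The test returns no SE, so it was taken as the absolute log2 value divided by the square root of the test's F statistic. The variation between libraries of a group beyond counting error (edgeR's common coefficient), which may be technical, was 3.05% for nuclear and 3.90% for total RNA. Fits were tested on simulated data. Pathway genes were named as those with the smallest p in Hom against Het, up to 4 per list and fraction, and not all of these are printed. Hspa5 is given outside that rule. The members and lists were chosen with earlier results of these data known. Within a fraction, same-numbered replicates of different genotypes did not vary together (r from -0.123 to 0.0817 over 18 pairs). Same-numbered nuclear and total libraries of a genotype were not compared in this way. Alternatives were library totals alone, RLE size factors, DESeq2 1.42.0, 2 other count filters (none, or a mean of at least 5 CPM), a replicate block, other sets of libraries in the fit, removal of Rn45s, Total_WT replicate 1 as deposited, and omission of single libraries.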

Additional observations from a re-analysis of the deposited data

Results flagged for a closer look

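The Hom against Het difference was not the same in nuclear and total RNA for 4 members, by the edgeR interaction test over 15410 genes. The nuclear minus total value was -0.998 (log2) for Trib3, -0.857 for Xbp1, -0.313 for Sdf2l1 and 0.170 for Pdia4. For Xbp1 the 3 nuclear libraries of Hom were below those of Het and the 3 total libraries above them. The Trib3 value rests on 18 to 52 counts per library in these groups, and the Pdia4 value turned to -0.0435 with library totals alone. Both nuclear groups are Xist-high and both total groups Xist-low, so fraction and Xist status cannot be told apart in these values. As 63.6% of all genes passed the same test, 4 of 10 members is below the background.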

How the results depend on the processing

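Of 910 member values under the settings other than leaving out a library, 844 kept their direction and side of the threshold. Without a change of sign, 28 lost and 9 gained a call. A further 11 reversed, meaning that the sign changed with a call under at least 1 of the 2 settings, not necessarily of the new sign. The other 18 changed sign with no call under either setting. Leaving out 1 library kept 1196 of 1260, with 0 reversals. All 11 reversals came with library totals alone: Atf4 in Nuclear Het against WT (0.0158), Total Hom against Het (0.0354), Total Het against WT (-0.158) and the interaction (-0.188); Atf6 in Total Hom against Het (0.0313), Total Het against WT (-0.162) and nuclear against total RNA in WT (-0.0559) and Het (0.103); Xbp1 in Total Het against WT (-0.144); and Herpud1 (-0.154) and Pdia4 (-0.0435) in the interaction. The number of members called moved by over 1.5 times in Total Hom against WT (main 9, deposited column of Total_WT replicate 1 5, leaving out 1 library 4 to 9), Total Het against WT (main 5, library totals alone 8, deposited column 3) and nuclear against total RNA in WT (main 8, mean of at least 5 CPM 5, a filter that removes Trib3 and Chac1). With the replicate block the members called were 6, 9 and 8 in Nuclear Hom against Het, Hom against WT and Het against WT, 7, 9 and 5 in the same total comparisons, 4 in the interaction and 8, 7 and 6 in nuclear against total RNA in WT, Het and Hom, all equal to the counts without it. Depth limits Trib3 and Chac1, at 10 to 52 counts per library.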
